A study of Mus musculus with 6 samples.

Results

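The nuclear genes for the subunits of the respiratory chain and the ATP synthase were examined in resting bone-marrow-derived macrophages (BMDMs), with and without CITED2. The members were set by a rule on gene names. It took names that begin with *Ndufa*, *Ndufb*, *Ndufc*, *Ndufs*, *Ndufv*, *Uqcr*, *Cox4* to *Cox8* or *Atp5*, together with *Sdha*, *Sdhb*, *Sdhc* and *Sdhd*, and left out names with "-ps" and the *Ndufaf* assembly factors. The rule found 85 of the 22248 genes in the deposited matrix, of which 83 are annotated as protein coding and 2, *Cox6c2* and *Ndufb4c*, as processed pseudogenes. By complex, the rule took 37 genes for complex I, 4 for complex II, 8 for complex III, 19 for complex IV and 17 for the ATP synthase, with *Ndufa4* and *Ndufa4l2* counted in complex IV.

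The data comprise 6 RNAseq libraries from C57BL/6 mice at postnatal week 10 by the labels, whereas the study's methods give another age for the mice whose marrow was cultured. The control group is 3 libraries from *Lyz2cre* mice, and the CITED2-deficient group is 3 libraries from *Cited2 fl/fl:Lyz2cre* mice. Both genotypes carry the Cre recombinase, which is made from the *Lyz2* locus in myeloid cells and removes the floxed part of *Cited2* from floxed alleles, of which the control genotype names none. The study grew the BMDMs from bone marrow in medium with macrophage colony-stimulating factor and gave these libraries no inflammatory stimulus. The design names 3 mice for each genotype, but no label ties a library to a mouse, so the p-values measure the spread between these libraries. The comparison asks how the loss of CITED2, a transcriptional coregulator, alters transcript levels in resting macrophages. *Cited2* (chromosome 10, 17723218 to 17725674 in mm10) was at 71.7, 79.3 and 75.5 FPKM in the control libraries and at 9.27, 7.22 and 7.53 FPKM in the CITED2-deficient libraries, so each library matched its labelled genotype. FPKM are fragments per kilobase of transcript, scaled to the fragments mapped in each library.

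The respiratory chain passes electrons from NADH (complex I) and succinate (complex II) through ubiquinone to complex III, and from there through cytochrome c to complex IV, which reduces oxygen. Complexes I, III and IV pump protons across the inner mitochondrial membrane, and the ATP synthase makes ATP as the protons flow back. Complexes I, III and IV and the ATP synthase mix nuclear subunits with subunits encoded in mitochondrial DNA, whereas complex II is wholly nuclear. Macrophages can draw on oxidative phosphorylation or on glycolysis, and their inflammatory state is known to be accompanied by a change in the balance of these routes.

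Differences are given as CITED2-deficient minus control on the scale of log2(FPKM + 1), and a gene was said to fall or rise where limma gave an adjusted p under 0.05 over all 11687 genes with a mean of at least 1 FPKM. Of the 85 members, 80 reached that level. Among these 80 members, 61 fell, 1 rose and 18 did not pass the test. Among all genes tested, 51.3% passed, 34.6% fell and 16.7% rose, against 61 falls and 1 rise in 80 here. The median difference of the members was -0.25, beside -0.10 for all genes tested, and 76 of the 80 members had a difference below 0. The FPKM of every CITED2-deficient library was below that of every control library for 58 of the 80 members, while 40.9% of all genes tested had this order. Summed over the tested members, the level was 6688, 6866 and 6740 FPKM in control replicates 1 to 3 and 5935, 5406 and 5773 FPKM in CITED2-deficient replicates 1 to 3. The sums of the groups did not overlap, and CITED2-deficient replicate 2 was the lowest of the 6. In bulk RNA, fewer cells of a type and less RNA per cell cannot be told apart. With 3 libraries against 3, an exact permutation test of a single value cannot go below p = 0.1.

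**Figure D1:**
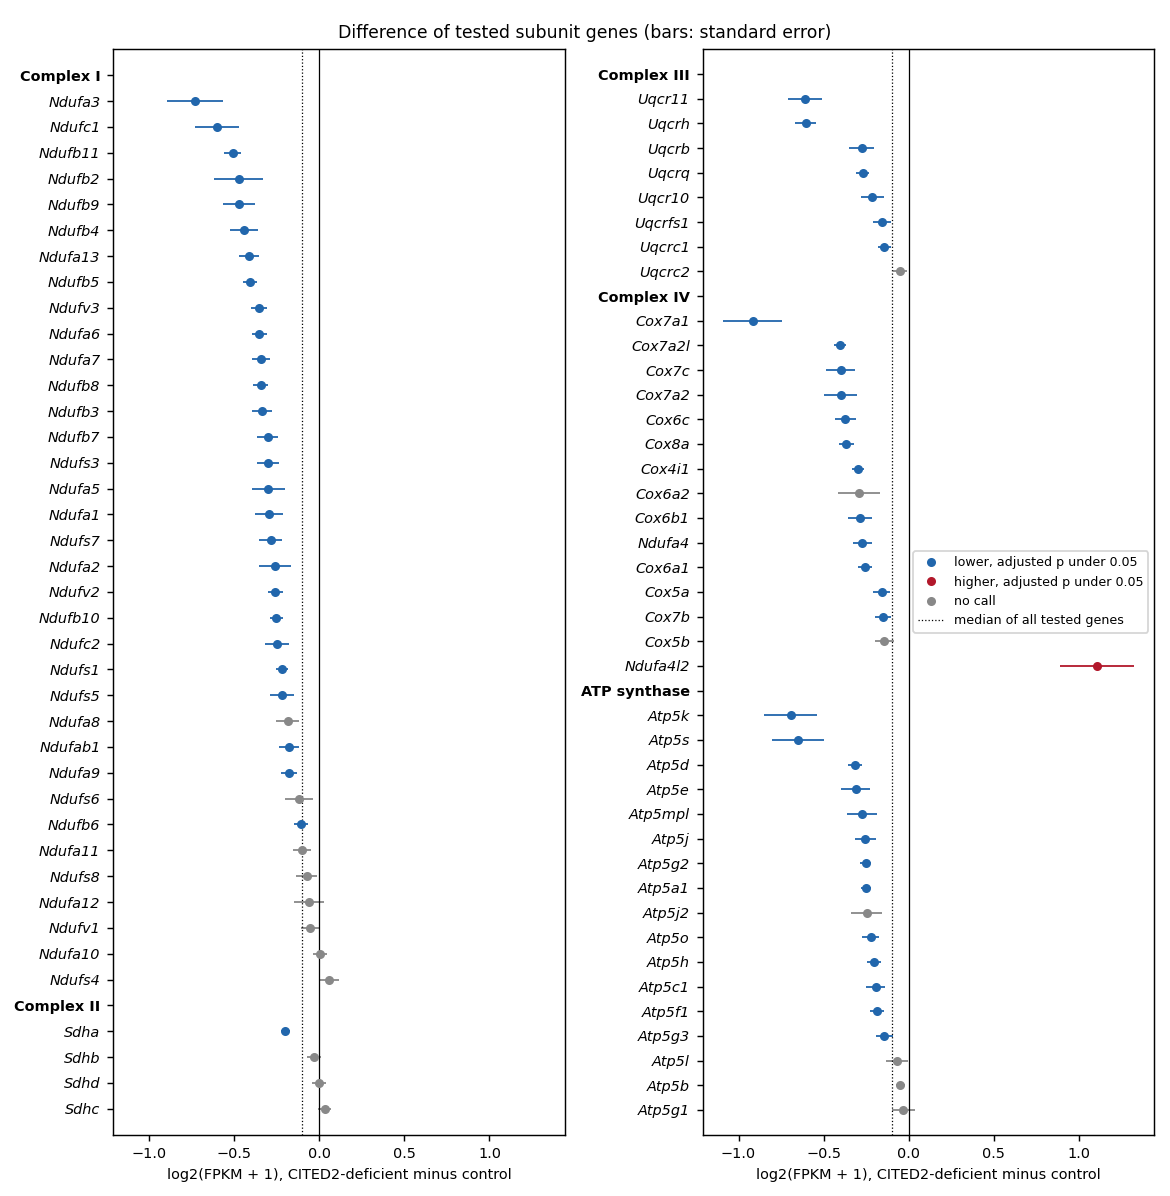
The difference between CITED2-deficient and control BMDMs on the log2(FPKM + 1) scale (x axis) is plotted for tested subunit genes by complex (y axis), with its standard error as a bar and its limma call as the color. The members that fell lie to the left of 0, *Ndufa4l2* alone passed the test above 0, and most members also lie to the left of the median of all tested genes at -0.10.

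The number of falls depended on how the libraries were scaled. After median-ratio scaling, which moved the median of all genes tested from -0.10 to -0.01, 40 of the 80 members fell, with 22.0% of all genes falling, and 2 members rose, *Ndufa4l2* and *Sdhc*. The median of the members was then -0.16. Among all genes tested, 4044 fell and 1950 rose as deposited, against 2576 falls and 2624 rises after this scaling.

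The falls were small for most members. A difference of at least 0.5 in size together with the test was met by 9 members. The falls among them were those of *Cox7a1* at -0.92, *Ndufa3* at -0.73, *Atp5k* at -0.69, *Atp5s* at -0.65, *Uqcr11* and *Uqcrh* at -0.61 each, *Ndufc1* at -0.60 and *Ndufb11* at -0.51, and the rise was that of *Ndufa4l2* at 1.11. All of these except *Atp5s* and *Ndufa4l2* encode small structural subunits or isoforms of them, without a redox group.

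Promoter sequence is set beside these values because many members moved in the same direction. RefSeq windows on GRCm38.p6, from 250 bases before to 50 bases after each start, were given for 66 of the 85 members, in 71 windows. Letters known from regulators of respiratory genes were searched on both strands. The NRF1 letters GCGCATGCG, which nearly read the same on both strands, stood in 8 windows (11.3%) and in 1.75% of all 32851 windows. The YY1 letters AAGATGGCG stood in 7 windows (9.86%) and in 1.40% of all. The ETS letters CCGGAAGT, read by GABPA, stood in 5 (7.04%) and in 3.89% of all. The ERR letters TCAAGGTCA stood in 2 (2.82%) and in 0.423% of all. No motif contains another. Any of the 4 stood in 21 of the 71 windows (29.6%) and in 7.11% of all. These 21 windows belonged to 21 tested members, of which 14 fell, beside 61 of 80 for all tested members. Only letters before the RefSeq start are printed. The GENCODE vM21 start is at 84835625 for *Atp5j* and at 108434448 for *Atp5k*. By that annotation the printed *Atp5j* stretch lies inside the gene, and the *Atp5k* stretch partly inside it. For each motif, the stretch is that of the member with the largest fall among those with the letters before the start. For YY1, *Ndufc1* fell more (-0.60) than the printed *Atp5j* but held its letters after the start. The last stretch is from the member without a call, with a motif before its start, whose difference was nearest to 0. Each is written from 5′ to 3′ along the gene, all 5 genes lie on the minus strand, and capitals mark the motif letters on either strand.
*Uqcr11* (ETS, chr10:80406845-80406922): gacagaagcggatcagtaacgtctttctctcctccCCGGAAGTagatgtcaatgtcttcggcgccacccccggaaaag
*Atp5k* (NRF1, chr5:108434406-108434484): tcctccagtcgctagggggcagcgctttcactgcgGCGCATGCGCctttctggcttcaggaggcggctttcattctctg
*Atp5j* (YY1, chr16:84835021-84835099): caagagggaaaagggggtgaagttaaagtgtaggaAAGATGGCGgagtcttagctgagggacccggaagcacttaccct
*Atp5g3* (ERR, chr2:73911335-73911413): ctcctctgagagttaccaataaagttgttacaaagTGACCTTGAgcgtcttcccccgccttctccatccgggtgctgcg
*Atp5l* (NRF1, no call, chr9:44920940-44920992): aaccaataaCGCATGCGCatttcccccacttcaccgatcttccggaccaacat
The letters were found before or after the start of members that fell and of members that did not pass the test. Of the tested members with the letters, 5 of 5 fell for ETS, 5 of 8 for NRF1, 4 of 7 for YY1 and 1 of 2 for ERR. Those that did not pass were *Ndufa11*, *Ndufa8* and *Atp5l* for NRF1, *Ndufs4*, *Ndufs6* and *Atp5j2* for YY1, and *Sdhd* for ERR. *Uqcr11* held both the ETS and the NRF1 letters.

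Complex I, the NADH dehydrogenase, had the most members. Of its 36 tested genes, 28 fell and 8 did not pass the test, with a median of -0.27. The 7 core subunits encoded in the nucleus, which hold the NADH site, the iron-sulfur clusters and the path to ubiquinone, had a median of -0.22, and 5 of them fell. The subunits of complex I encoded in mitochondrial DNA are given further below. *Ndufs3*, a core subunit, was at 61.4, 61.8 and 58.2 FPKM in control and 44.2, 49.6 and 53.1 FPKM in CITED2-deficient libraries (-0.30, standard error 0.06, limma adjusted p = 0.00337). *Ndufs7*, an iron-sulfur subunit, went from 71.9, 77.4 and 76.0 FPKM to 65.0, 54.4 and 65.4 FPKM, a difference of -0.29. *Ndufv2*, also an iron-sulfur subunit, was at 50.6, 50.7 and 53.2 FPKM against 43.3, 44.2 and 41.1 FPKM, a difference of -0.26. In each of these 3 genes, every CITED2-deficient library lay below every control library. *Ndufs1*, the largest iron-sulfur subunit, was at 48.6, 48.4 and 47.0 FPKM against 41.6, 40.2 and 41.4 FPKM (-0.22). Its groups stood apart as well. *Ndufv1*, which binds NADH, was at 52.1, 47.8 and 49.2 FPKM against 50.6, 45.2 and 47.5 FPKM (-0.06, limma adjusted p = 0.390). *Ndufs8*, another iron-sulfur subunit, was at 41.2, 39.2 and 39.8 FPKM against 40.5, 34.0 and 39.6 FPKM (-0.08, limma adjusted p = 0.353). The groups of these last 2 core subunits overlapped.

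Of the 29 tested accessory subunits of complex I, which surround the core, 23 fell, with a median of -0.30. All 10 tested genes with *Ndufb* names, whose products sit mostly in the membrane arm, fell, with differences from -0.51 (*Ndufb11*) to -0.11 (*Ndufb6*) and a median of -0.38. *Ndufb6* was nearest to the threshold (limma adjusted p = 0.0497) and passed under 4 of 18 alternatives. *Ndufb11* (chromosome X, 20615326 to 20617619) was at 45.6, 45.3 and 46.3 FPKM in control and 31.1, 30.2 and 34.3 FPKM in CITED2-deficient libraries, with no overlap (standard error 0.05, limma adjusted p = 3.71e-05). Of the 13 genes of complex I whose names begin with *Ndufa*, among them *Ndufab1* for the acyl carrier protein, 9 fell. *Ndufa3* (chromosome 7, 3617373 to 3620327), a small membrane subunit, had the largest fall in the complex, from 65.2, 73.9 and 76.3 FPKM to 58.0, 33.2 and 40.5 FPKM (-0.73, standard error 0.16, limma adjusted p = 0.00514). Its groups did not overlap, though CITED2-deficient replicate 1 lay close to the controls, and its exons share bases with *Tfpt* on the other strand. The accessory subunits without a call were *Ndufa8* (limma adjusted p = 0.0509), *Ndufa10*, *Ndufa11*, *Ndufa12*, *Ndufs4* and *Ndufs6*, with differences from -0.19 to 0.06. After median-ratio scaling, 19 of the 36 genes of the complex fell, among them 4 core subunits, 15 accessory subunits, 9 *Ndufb* genes and 4 *Ndufa* genes.

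Complex II, succinate dehydrogenase, is shared with the citric acid cycle. Its catalytic subunit *Sdha* (chromosome 13, 74322254 to 74350280), which carries the flavin, fell from 312, 319 and 320 FPKM to 272, 275 and 280 FPKM (-0.20, standard error 0.03, limma adjusted p = 0.000238), with the groups apart. The other 3 subunits did not pass the test, and their groups overlapped. *Sdhb*, the iron-sulfur subunit, was at 72.4, 76.9 and 76.5 FPKM in control and 75.4, 70.6 and 74.7 FPKM in CITED2-deficient libraries (-0.03). The membrane anchor *Sdhc* was at 65.5, 62.5 and 66.1 FPKM against 67.2, 63.8 and 67.6 FPKM (0.03). The membrane anchor *Sdhd* was at 61.2, 64.9 and 59.3 FPKM against 62.0, 61.4 and 61.7 FPKM (-0.0016). The median of the complex was -0.02, the nearest to 0 of the 5 complexes and above the -0.10 of all genes tested. After median-ratio scaling, *Sdhc* passed the test as a rise (0.13, limma adjusted p = 0.0208) and *Sdha* as a fall (-0.11).

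Complex III, the cytochrome bc1 complex, had 8 tested nuclear genes under the name rule, and 7 of them fell (median -0.24). After median-ratio scaling 3 of the 8 fell, namely *Uqcr11*, *Uqcrh* and *Uqcrq*. The rule does not take *Cyc1* for cytochrome c1, a further nuclear gene of the complex, which did not pass the test (-0.05, limma adjusted p = 0.452). *Uqcr11* (chromosome 10, 80402997 to 80406830), a small accessory subunit whose promoter stretch is printed above, fell from 59.99, 70.2 and 67.0 FPKM to 47.0, 35.7 and 46.3 FPKM (-0.61, standard error 0.10, limma adjusted p = 0.000923). *Uqcrh* (chromosome 4, 116066965 to 116075071), the hinge protein near cytochrome c1, fell from 131, 130 and 119 FPKM to 90.2, 76.3 and 82.3 FPKM (-0.61, standard error 0.06, limma adjusted p = 4.22e-05). Both genes had groups that did not overlap. *Uqcrc1*, the most abundant transcript of the complex, fell by 0.14 on the log2 scale, from 160, 156 and 154 FPKM to 149, 136 and 140 FPKM. The Rieske iron-sulfur subunit *Uqcrfs1* fell from 45.1, 50.03 and 48.1 FPKM to 44.1, 40.5 and 43.5 FPKM (-0.16, limma adjusted p = 0.0279). The other core protein, *Uqcrc2*, did not pass the test (-0.05).

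Complex IV, cytochrome c oxidase, had the lowest median, -0.29, with 12 falls, 1 rise and 2 genes without a call among 15 tested. Of the 12 common subunits, 11 fell, with differences down to -0.40, and *Cox5b* (-0.14, limma adjusted p = 0.0611) did not pass. Of the 12, 9 fell once median-ratio scaling was applied. *Cox4i1* (chromosome 8, 120668222 to 120674207) was the most abundant, and fell from 374, 396 and 392 FPKM to 327, 302 and 317 FPKM (-0.30, standard error 0.04, limma adjusted p = 0.000149). *Cox7a2l*, counted here among the 12, is known as a factor for supercomplexes of complexes III and IV, a role not examined in these cells. It was at 156, 157 and 154 FPKM against 119, 112 and 121 FPKM (-0.40, limma adjusted p = 1.90e-05). The groups of both genes stood apart.

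Complex IV is also the place where common subunits have alternate isoforms. *Ndufa4l2* (chromosome 10, 127514967 to 127517154), a relative of *Ndufa4* that is known from cells in low oxygen, was at 0.344, 0.226 and 0.550 FPKM in control and 3.02, 1.27 and 1.80 FPKM in CITED2-deficient libraries. It rose by 1.11 (standard error 0.22, limma adjusted p = 0.00248), and the groups stood apart. These levels are 5, 3 and 8 recovered fragments in control and 59, 22 and 36 in CITED2-deficient libraries, and the gene reached the 1 FPKM minimum only through the group in which it was high. Its exons share bases with *Shmt2* on the other strand. *Ndufa4* itself fell from 83.1, 85.0 and 73.1 FPKM to 68.4, 64.4 and 66.2 FPKM (-0.27).

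*Cox7a1* (chromosome 7, 30184144 to 30186078), the heart and muscle isoform of subunit 7a, had the largest fall of all members, from 2.41, 4.08 and 3.13 FPKM to 1.17, 0.908 and 1.57 FPKM (-0.92, standard error 0.17, limma adjusted p = 0.00206). The groups stood apart, on 20 to 31 recovered fragments in control and 9 to 18 in CITED2-deficient libraries. Its common partner *Cox7a2* fell from 83.7, 91.0 and 91.9 FPKM to 78.6, 56.9 and 67.4 FPKM (-0.40). The muscle isoform *Cox6a2* was at 2.57, 2.13 and 1.86 FPKM against 1.62, 1.69 and 1.46 FPKM and did not pass the test (-0.29, limma adjusted p = 0.0809), although its groups did not overlap. Its common partner *Cox6a1* fell from 249, 264 and 269 FPKM to 222, 207 and 226 FPKM (-0.25). *Cox6b1* fell from 228, 226 and 212 FPKM to 203, 163 and 181 FPKM (-0.29), and its testis isoform *Cox6b2* stayed at or below 0.734 FPKM in every library. *Cox8a* fell from 228, 235 and 229 FPKM to 190, 169 and 179 FPKM (-0.37), while its muscle isoform *Cox8b* was listed at 0 in 5 of 6 libraries. *Cox4i2*, the isoform of lung and low oxygen, was at 0.290, 0.158 and 0.217 FPKM in control and 0.485, 0.546 and 0.210 FPKM in CITED2-deficient libraries, with 2 to 9 fragments in each. *Cox4i2*, *Cox6b2*, *Cox8b* and the pseudogenes *Cox6c2* and *Ndufb4c* are the 5 members below the 1 FPKM minimum, and none of them passed the test when no minimum was set.

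**Figure D2:**
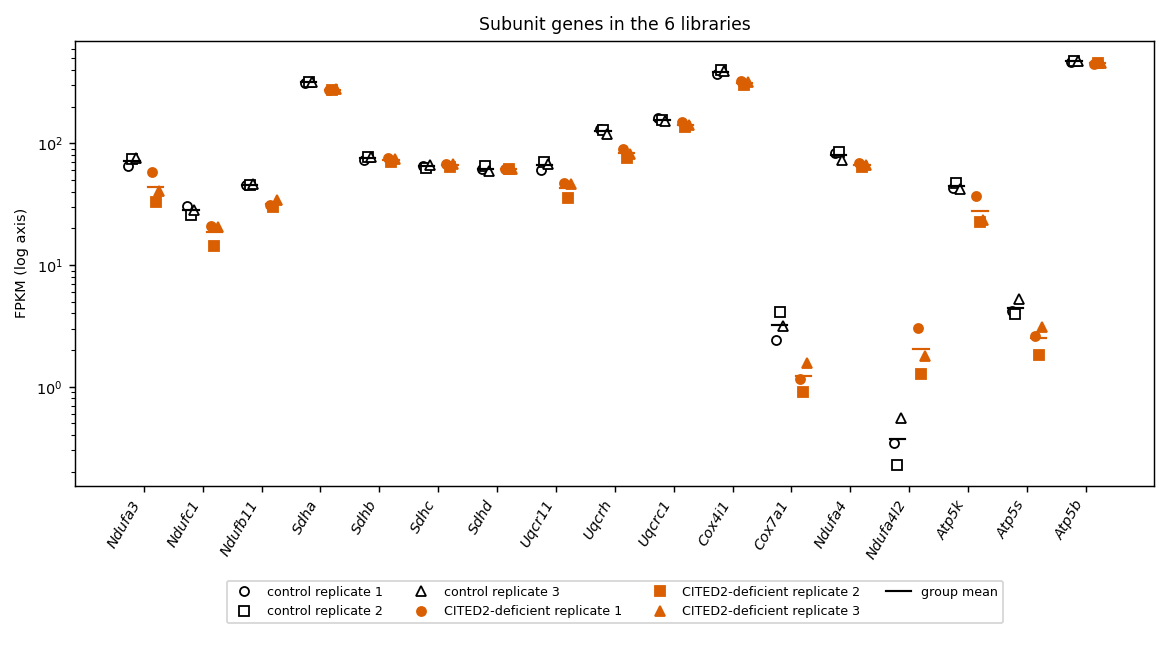
FPKM on a log axis (y axis) is plotted in each of the 6 libraries for 17 subunit genes (x axis), with open black symbols for control libraries, filled orange symbols for CITED2-deficient libraries and lines for the group means. *Uqcrh*, *Uqcr11*, *Cox7a1* and *Atp5k* sit lower in all CITED2-deficient libraries, *Ndufa4l2* sits higher, and *Sdhb*, *Sdhc* and *Sdhd* overlap.

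All 17 genes of the ATP synthase were tested, and 13 fell (median -0.25). Of the 5 subunits of the catalytic F1 head, 4 fell. The exception was *Atp5b* (chromosome 10, 128083273 to 128090391), the catalytic beta subunit and the most abundant transcript of all members. It was at 469, 475 and 471 FPKM in control and 452, 456 and 461 FPKM in CITED2-deficient libraries, so that the groups did not overlap while the difference of -0.05 (standard error 0.02) did not pass (limma adjusted p = 0.123). The alpha subunit *Atp5a1*, which pairs with it in the head, fell from 284, 290 and 295 FPKM to 251, 238 and 240 FPKM (-0.25, limma adjusted p = 0.000138). All 4 genes of the peripheral stalk, which holds the head in place, fell, with differences from -0.25 (*Atp5j*) to -0.19 (*Atp5f1*). After median-ratio scaling, 2 of the 4 stalk genes passed as falls (*Atp5j*, limma adjusted p = 0.0569, and *Atp5f1*, limma adjusted p = 0.0803, did not), as did 2 of the 5 genes of the head and 7 of the 17 genes in all. The 3 genes that encode the identical subunit c of the rotating ring differed in level. *Atp5g2* and *Atp5g3* had means of about the same size and fell (-0.25 and -0.14, the latter without a call after median-ratio scaling), and the weaker *Atp5g1*, at 13.2 to 15.0 FPKM in all 6 libraries, did not pass (-0.03). *Atp5k* (chromosome 5, 108433244 to 108434448), a small membrane subunit that joins the enzyme into dimers, had the largest fall, from 43.2, 47.3 and 42.0 FPKM to 36.9, 22.4 and 23.5 FPKM (-0.69, standard error 0.16, limma adjusted p = 0.00543). Its groups stood apart, with CITED2-deficient replicate 1 nearest to the controls. *Atp5s*, the coupling factor B gene, fell at a low level, from 4.19, 3.97 and 5.24 FPKM to 2.62, 1.82 and 3.07 FPKM (-0.65). *Atp5l* (-0.07) and *Atp5j2* (-0.25, limma adjusted p = 0.0512) did not pass.

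The 13 subunits encoded in mitochondrial DNA were compared from a separate list. Of these, 7 fell (53.8%, beside 34.6% of all genes tested), 0 rose and 6 did not pass in the limma fit as deposited. The counts were the same after median-ratio scaling, with 22.0% of all genes falling. At an unadjusted limma p under 0.05, 0 were higher in the fit as deposited. *mt-Nd4* fell by 0.86, from 806, 875 and 851 FPKM to 502, 458 and 432 FPKM. *mt-Nd6*, the only subunit encoded on the other strand, fell by 0.86, from 1164, 1239 and 1109 FPKM to 669, 639 and 619 FPKM. *mt-Cytb*, the cytochrome b of complex III, fell by 0.79, from 1848, 1928 and 1824 FPKM to 1130.3, 1084 and 1027 FPKM. These 3 had no overlap between the groups, and their falls were larger than those of all tested nuclear subunits except *Cox7a1*.

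The other complex I genes *mt-Nd5* and *mt-Nd2* fell by 0.59 and 0.56. *mt-Nd5* was at 998, 1027 and 996 FPKM against 667, 700 and 644 FPKM, and *mt-Nd2* at 921, 941 and 885 FPKM against 646, 631 and 586 FPKM. *mt-Nd1* fell by 0.46, from 1686, 1702 and 1619 FPKM to 1266, 1244 and 1122 FPKM. The complex IV gene *mt-Co1*, the most abundant of the 13, fell by 0.28, from 5441, 5485 and 5358 FPKM to 4436, 4662 and 4325 FPKM. All 7 had groups that did not overlap and limma adjusted p from 3.34e-07 to 9.54e-05.

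The remaining 6 were listed at far lower levels. *mt-Co2* was at 13.9, 14.0 and 29.8 FPKM in control and 24.0, 18.5 and 19.4 FPKM in CITED2-deficient libraries. *mt-Co3* was at 11.4, 12.5 and 19.0 FPKM against 17.7, 14.2 and 13.8 FPKM, and *mt-Atp6* at 12.7, 10.7 and 24.3 FPKM against 22.1, 18.01 and 17.9 FPKM. Control replicate 3 stood above the other controls in all 3, and without it they passed as rises of 0.52, 0.32 and 0.68. *mt-Nd3* was at 10.2, 9.97 and 12.0 FPKM against 10.3, 9.42 and 9.91 FPKM, and *mt-Nd4l* at 4.99, 3.51 and 8.17 FPKM against 7.82, 10.1 and 4.90 FPKM. *mt-Atp8* was at 2.59, 1.42 and 1.81 FPKM against 1.74, 1.74 and 2.44 FPKM. The first 5 of these 6 have a near-identical copy in the GENCODE vM21 transcripts, as do *mt-Co1*, *mt-Nd4* and *mt-Nd5*, so their levels depend on how reads with several positions were counted. Genes of mitochondrial DNA took 1.69 to 1.75% of the recovered fragments in control and 1.23 to 1.32% in CITED2-deficient libraries, and rescaling without them left 59 of the 80 nuclear members lower.

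**Figure D3:**
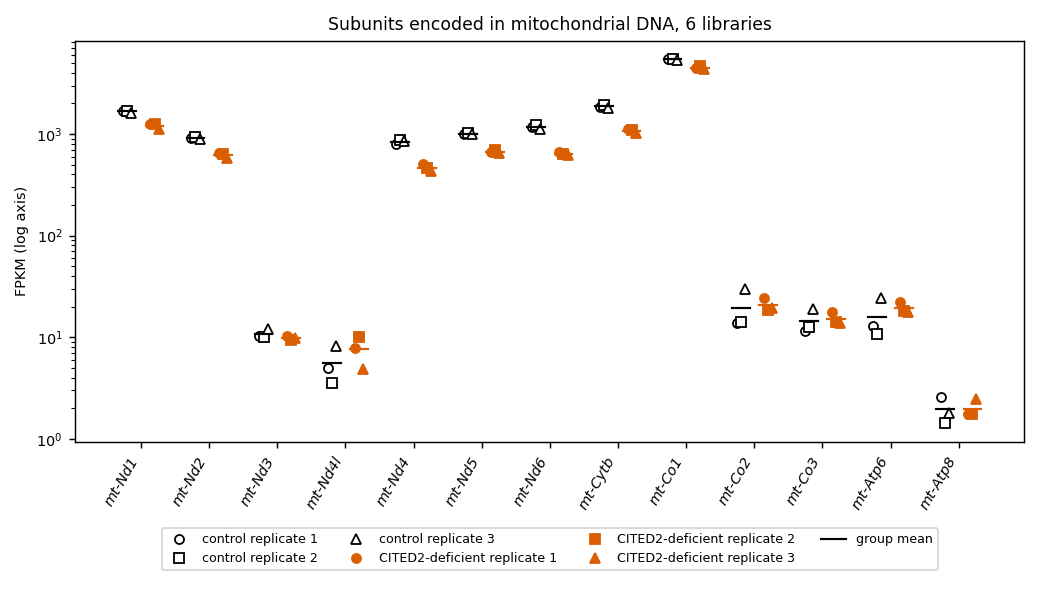
FPKM on a log axis (y axis) is plotted in each of the 6 libraries for the 13 subunits encoded in mitochondrial DNA (x axis), with open black symbols for control, filled orange symbols for CITED2-deficient libraries and lines for the group means. The 7 genes above 400 FPKM are lower in every CITED2-deficient library, and the 6 genes below 30 FPKM overlap.

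The carriers that link the complexes and the enzymes that feed them did not move in one direction. Of 8 such genes, 4 fell (50%, beside 34.6% of all genes tested), 1 rose and 3 did not pass. After median-ratio scaling 3 fell, beside 22.0% of all genes tested, and 1 rose, beside 2624 of all 11687. Cytochrome c (*Cycs*), which carries electrons from complex III to complex IV, rose from 14.9, 14.6 and 14.9 FPKM to 20.6, 19.9 and 21.1 FPKM (0.45, limma adjusted p = 6.68e-05), and its partner in complex III, cytochrome c1 (*Cyc1*), did not pass (-0.05). *Etfb*, a part of the flavoprotein that brings electrons from fatty acid oxidation, had the largest fall of this list, from 7.08, 11.4 and 9.73 FPKM to 6.40, 2.64 and 1.87 FPKM (-1.27, standard error 0.31, limma adjusted p = 0.00795). Of 13 genes for the synthesis of coenzyme Q, the ubiquinone of the chain, 4 fell (30.8%, beside 34.6% of all genes tested) and 2 rose (beside 16.7% of all). After median-ratio scaling there were 1 fall, beside 22.0% of all genes, and 2 rises, beside 2624 of all 11687 genes tested. *Coq2*, which attaches its side chain, rose from 26.3, 29.5 and 26.1 FPKM to 45.5, 47.2 and 46.1 FPKM (0.74, limma adjusted p = 4.12e-06). *Coq8a*, an atypical kinase of the synthesis complex, fell from 10.4, 10.8 and 11.3 FPKM to 6.20, 7.44 and 5.23 FPKM (-0.70). The groups of *Coq2* and of *Coq8a* did not overlap.

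Assembly factors build the complexes without staying in them. Of 43 tested, 11 fell (25.6%, beside 34.6% of all genes tested), 5 rose (beside 16.7% of all) and 27 did not pass. Their median was -0.08, beside -0.10 for all genes tested. *Sdhaf4*, for the flavin subunit of complex II, fell most, from 16.6, 18.8 and 18.4 FPKM to 11.4, 13.3 and 10.7 FPKM (-0.57), and *Coa5*, for complex IV, rose most, from 47.4, 47.3 and 47.3 FPKM to 65.0, 72.4 and 67.5 FPKM (0.52). After median-ratio scaling, 7 of the 43 assembly factors fell, beside 22.0% of all genes tested. A rise was called for 9, beside 2624 of all 11687 genes tested. Of 14 tested regulators of respiratory gene transcription, 6 fell (42.9%, beside 34.6% of all genes tested) and none rose in the limma fit. At an unadjusted limma p under 0.05, 0 were higher. After median-ratio scaling 1 of the 14 fell, beside 22.0% of all genes tested. *Gabpb1*, the partner of the ETS factor GABPA, fell from 10.8, 12.0 and 10.8 FPKM to 9.28, 7.72 and 7.90 FPKM (-0.39, limma adjusted p = 0.00334). *Gabpa* and *Yy1*, whose letters were searched above, fell by 0.17 and 0.20, while *Nrf1* (-0.13) and *Esrra* (-0.01) did not pass. The coactivator gene *Ppargc1a* was at or below 0.0777 FPKM in every library.

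Transcript length went with the size of the difference. Over the 80 tested members, Spearman's rho between mean transcript length and difference was 0.35, beside 0.10 over 11682 tested genes with a length, a description across genes that share libraries. The median length was 765.5 bases for the members and 1642.5 bases for all genes tested. Of the 30 members of up to 600 bases, 27 fell (median -0.28), while 24.9% of all tested genes of this length fell (median -0.11). Of the 22 members of 600 to 900 bases 13 fell, of the 18 of 900 to 1200 bases 15 fell, and of the 10 of 1200 to 3000 bases 6 fell, with 40.02%, 40.7% and 35.5% of all genes of these lengths falling. With the trend of length and GC content removed from each library, 57 members fell and the median was -0.23.

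**Figure D4:**
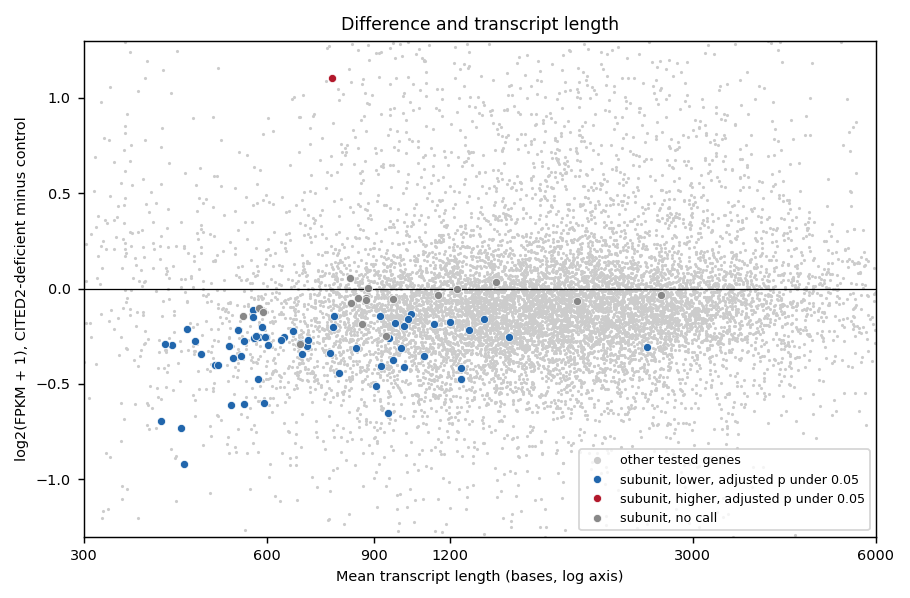
The difference on the log2(FPKM + 1) scale (y axis, cut at 1.3 in both directions) is plotted against the mean transcript length in bases (x axis, log scale) for the tested subunit genes, colored by their call, over the other tested genes in gray. All members of up to 600 bases sit below 0, and they include the large falls of *Cox7a1*, *Ndufa3* and *Atp5k*.

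Several measures moved with the groups. The recovered depth was 17289286 to 18952077 fragments in control and 22583995 to 26100410 in CITED2-deficient libraries. CITED2-deficient replicate 2 was the lowest of its group for 61 of the 80 tested members (for 35.6% of all genes tested) and replicate 1 the highest for 51 of 80, and without replicate 2 the number of falls was 51. The marker counts that follow stand beside 34.6% falls and 16.7% rises among all genes tested. After median-ratio scaling, 2576 of all 11687 fell and 2624 rose. Markers of macrophages were present, with summed levels of 5624 to 5694 FPKM in control and 5287 to 5367 FPKM in CITED2-deficient libraries. Of the 8, 5 fell, namely *Lyz2* (-1.59), *Itgam* (-0.81), *Adgre1* (-0.32), *Csf1r* (-0.31) and *Mertk* (-0.26), *Fcgr1* rose (1.48), and *Cd68* and *Cd14* did not pass. The Cre of both genotypes is made from the *Lyz2* locus, so *Lyz2* is not a plain measure of macrophages here, and the part of that allele was not tested. After median-ratio scaling *Cd68* and *Cd14* passed as rises too (5 falls and 3 rises). All 8 tested of 10 markers of fibroblasts or stromal cells rose, and the 10 summed to 51.0 to 62.5 FPKM in control and to 585, 198 and 200 FPKM in CITED2-deficient replicates 1 to 3. Without replicate 1, which had the highest stromal sum, 59 members fell. Of 9 granulocyte markers, 8 fell and *Ltf* rose (sums 491 to 545 FPKM against 432 to 501 FPKM). Osteoclast markers summed to 54.4 to 56.8 FPKM against 66.2 to 72.0 FPKM (a rise of *Ctsk* and a fall of *Mmp9* in 3 tested, and 2 rises, *Ctsk* and *Acp5*, with no fall after median-ratio scaling), and B cell markers to at most 4.09 FPKM (1 rise, *Ebf1*, in 2 tested). No marker of dendritic cells, T or NK cells or erythroid cells was tested, since each listed one had a mean under 1 FPKM. Their sums were at most 1.42 FPKM in every library. The part of depth and of these cells in the falls was not tested.

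Some members share sequence with other genes. Near-identical transcripts, with at least 95% identity over at least 50% of the length, were found for 7 tested members (*Atp5h*, *Atp5k*, *Atp5l*, *Atp5o*, *Ndufb11*, *Ndufs3* and *Uqcrb*), and their values are uncertain where reads were split. Among the 73 tested members without such a copy, 55 fell. Exons of 30 tested members share bases with another gene, mostly on the other strand, and whether strand was used in the count is not known from the study's methods. Among the other 50 tested members, 37 fell.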

How the data were processed

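The authors made stranded libraries from total RNA after removal of ribosomal RNA, aligned them to mm10 by STAR and obtained gene FPKM from Cuffdiff with a GENCODE annotation. Tool versions and the release of the annotation were not given in the sources used here. The deposited values are FPKM for each gene and library, not pooled, and columns were matched to samples by older names of *Cited2* and *Lyz2* in the headers. FPKM are shares of a library, so strong changes in some genes move the values of the rest.

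Genes with a mean of at least 1 FPKM were fitted on log2(FPKM + 1) in limma 3.58.1 (R 4.3.3), the variance following a trend with expression, and p-values were adjusted over all of them by Benjamini-Hochberg (threshold 0.05). This scale understates changes of weak genes. Limma stands in for Cuffdiff, which needs alignments. Fragment numbers were recovered with mean GENCODE vM21 transcript lengths: 96.1% of the 22239 matched genes gave numbers that missed a whole number by at most 0.02 in each of the libraries. Copies were sought with BLAST+ 2.17.0. The members and lists were chosen with earlier results of these data known. Every member could be named, and library values are given for the largest rise, the largest fall and the most abundant gene of each complex, core subunits of complex I, complex II, isoform pairs, subunits of mitochondrial DNA and the extremes of the other lists. One of these genes is not reported here. Library values of a few further members were added after they were seen. Alternatives are listed with their effects in the closing section.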

Additional observations from a re-analysis of the deposited data

How the results depend on the processing

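All 61 members that fell had a difference below 0 under each of 18 alternatives in which they were fitted, and 39 of them passed the test under every alternative in which they were tested. Median-ratio scaling gave 40 falls, 2 rises and a median of -0.16, 7 falls for the ATP synthase and 3 for complex III. A minimum of 5 FPKM left 75 members, *Ndufa4l2* not among them, and 0 rises (0 at an unadjusted p under 0.05). A difference of at least 0.5 in addition to the test left 9 members. Pseudocounts of 0.1 and 0.5 kept the count at 61. No minimum gave 47 falls, a fit without the variance trend 49 (4 in complex III), quantile normalization 51, array weights 60 and limma-voom on recovered fragments 62. Leaving out each library in turn gave 50 to 59 falls, 51 to 60 members past the threshold and medians from -0.27 to -0.21.

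Some genes near 0 changed sign, and none of them passed the test on the changed side. After median-ratio scaling the values were 0.048 for *Atp5b*, 0.019 for *Ndufs8*, 0.038 for *Ndufv1*, 0.062 for *Sdhb*, 0.093 for *Sdhd*, 0.059 for *Atp5g1*, 0.025 for *Atp5l*, 0.046 for *Uqcrc2* and 0.031 for *Ndufa12*. With the trend of length and GC content removed they were 0.0016 for *Ndufs8*, 0.0094 for *Ndufv1*, 0.017 for *Sdhb* and 0.0142 for *Sdhd*. *Sdhd* was at 0.024 after quantile normalization, 0.0132 without mitochondrial genes in the scaling, 0.0078 with array weights and 4.1e-05 with limma-voom. With 1 library left out, *Sdhd* ranged from -0.031 to 0.034, *Ndufs8* from -0.12 to 0.0013, *mt-Co3* from -0.0301 to 0.32 and *mt-Atp8* from -0.11 to 0.18. *Ndufa10* was below 0, down to -0.024, without control replicate 2, control replicate 3 or CITED2-deficient replicate 1. *Ndufa12* was above 0 without control replicate 2 or CITED2-deficient replicate 2. *Atp5g1* was above 0 without CITED2-deficient replicate 3 and after quantile normalization. The causes were not tested.

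Replicate numbers occur in both groups, but the deviations of libraries with the same number correlated at 0.014, 0.0078 and 0.040, and not every library correlated best with its own number, so the pairing was not used. With the replicate number as a block, 5708 of all genes passed, with 59 falls and 1 rise among the members (60 in all) and a median of -0.25.

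Depth limits the 5 members below the 1 FPKM minimum, which have at most 9 fragments in a library, and 3 libraries a group limit every call.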

Other observations

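Some genes whose names fall outside the rule work with the same complexes, and they were chosen after their values were seen. *Atpif1*, which encodes the inhibitory factor of the ATP synthase, was at 97.7, 98.8 and 95.6 FPKM in control and 65.1, 47.9 and 59.3 FPKM in CITED2-deficient BMDMs (-0.76, standard error 0.09, limma adjusted p = 0.000132). *Usmg5*, a small membrane subunit of the ATP synthase, fell from 106, 114 and 102 FPKM to 95.1, 75.6 and 82.0 FPKM (-0.35). *Higd2a*, which takes part in the assembly of complex IV and its supercomplexes, fell from 53.5, 57.1 and 55.9 FPKM to 35.6, 36.6 and 40.2 FPKM (-0.55). *Minos1*, a part of the complex that shapes the cristae in which the chain lies, fell from 49.4, 49.9 and 48.5 FPKM to 35.9, 32.6 and 35.7 FPKM (-0.50). In each of these 4 genes the groups did not overlap. *Higd1a*, a relative of *Higd2a*, was at 14.1, 15.4 and 13.3 FPKM against 14.3, 12.8 and 13.5 FPKM and did not pass the test (-0.07, limma adjusted p = 0.432). *Dmac2*, an assembly factor of complex I, was at 26.2, 25.2 and 25.7 FPKM against 19.6, 25.8 and 19.9 FPKM and did not pass either (-0.24, limma adjusted p = 0.0535). The groups of both overlapped. *Ndufb1-ps*, whose name the rule left out, did not pass the test (-0.31, limma adjusted p = 0.0527).

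The ribosomal RNA genes of mitochondrial DNA rose. Of its 13 subunit genes, 7 fell and 6 did not pass the test, with 5 differences above 0. *mt-Rnr1* rose from 85.1, 81.8 and 82.9 FPKM to 228, 234 and 219 FPKM (1.43, limma adjusted p = 3.09e-09), and *mt-Rnr2* from 125, 129 and 124 FPKM to 172, 178 and 158 FPKM (0.42). Ribosomal RNA was removed before sequencing, and the part of that step in these values was not tested.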
